A study of Mus musculus with 8 samples.

Results

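The genes described here are 44 genes of mitosis and the spindle, chosen by name and sorted by the step they serve: Ki-67 and topoisomerase II alpha, CDK1 with its cyclins, the other mitotic kinases, the spindle checkpoint, the control of anaphase, the chromosomal passengers, the spindle motors, cytokinesis, the kinetochore, condensin, and the transcription factor Foxm1. Each gene was read from the probe set of its own symbol with the highest mean over the 8 arrays. Ccnb1, which encodes cyclin B1, had no probe set of its own symbol and was not analysed here, so 43 of the 44 genes were measured, out of 18193 genes with such a probe set. All 43 lay above the level used to filter dim genes (3.13 on the log2 scale) in all 8 arrays, and all were among the 11178 genes tested. Their values ran from 4.68 (Foxm1 in Th2 replicate 2) to 14.34 (Smc4 in Tfh replicate 2), but the levels of different probe sets cannot be set against each other.

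The arrays compared T follicular helper (Tfh) cells, which help B cells in follicles, with the Th1, Th2 and Th17 helper types, with 2 arrays in each of the 4 groups. The Tfh group was CD4+CXCR5+ T cells of the spleen, sorted by FACS from C57BL/6 mice 7 days after immunization with KLH, a foreign protein antigen, and restimulated with anti-CD3 for 4 h. The 3 other groups began as naive CD4 T cells of spleen and lymph node from OT-II T cell receptor transgenic mice on C57BL/6, aged 6 to 8 weeks, which were cultured for 5 days with OT-II peptide and antigen-presenting cells. Th1 cultures received IL-12 at 10 ng/ml with anti-IL-4, Th2 cultures IL-4 at 10 ng/ml with anti-IFNg, and Th17 cultures IL-6 at 20 ng/ml, TGFb at 5 mg/ml, anti-IL-4 and anti-IFNg, and the labels give every antibody as 10 mg/ml. Cell type, mouse line, source, time and handling therefore changed together between Tfh and the cultured groups and cannot be told apart. Whether replicates came from different animals or cultures is not stated in the labels, so the p-values reflect variation among these samples that could be purely technical, and the number of arrays limits the precision.

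Dividing cells make most mRNAs of the mitotic machinery late in the cycle, in G2 and mitosis, and destroy many of the proteins at its end. CDK1 with cyclin A or B drives entry into mitosis, the spindle checkpoint holds chromosomes until every kinetochore is attached, and the anaphase-promoting complex (APC/C) with Cdc20 then marks securin and cyclin B for destruction. Promoters of such late genes commonly carry a cell cycle genes homology region (CHR), through which the MuvB complexes act with B-Myb or, in resting cells, as the repressor DREAM, and CCAAT boxes bound by NF-Y. Activated T cells divide fast, so these mRNAs are widely read as a sign of cycling cells. In bulk samples, fewer cycling cells and less of an mRNA per cell cannot be told apart.

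The promoter windows of 6 genes are shown because they include 5 of the genes on which the Tfh comparisons turn, and Plk1 as a kinase with several matches to the CHR motif. They are RefSeq sequences of build GRCm38.p6, from 250 bases before to 50 bases after the annotated start, written 5′ to 3′ on the strand of the gene. Capitals mark every match, on either strand, to the CHR motif (TTTGAA or TTTAAA) and to the CCAAT box (CCAAT).
Cdk1 (chr10:69352863-69353162, minus strand): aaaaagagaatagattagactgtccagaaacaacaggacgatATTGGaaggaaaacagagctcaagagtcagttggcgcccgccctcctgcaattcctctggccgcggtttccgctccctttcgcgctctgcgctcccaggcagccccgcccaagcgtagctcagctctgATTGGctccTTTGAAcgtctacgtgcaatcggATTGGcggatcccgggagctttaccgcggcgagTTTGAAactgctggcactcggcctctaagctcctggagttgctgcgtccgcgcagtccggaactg
Cdc20 (chr4:118437294-118437593, minus strand): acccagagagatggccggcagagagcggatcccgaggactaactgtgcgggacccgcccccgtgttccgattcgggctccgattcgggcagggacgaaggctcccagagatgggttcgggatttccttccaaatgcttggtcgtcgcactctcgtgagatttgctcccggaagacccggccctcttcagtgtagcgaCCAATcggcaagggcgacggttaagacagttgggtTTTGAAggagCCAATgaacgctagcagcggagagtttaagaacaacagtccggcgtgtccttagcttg
Hmmr (chr11:40733388-40733687, minus strand): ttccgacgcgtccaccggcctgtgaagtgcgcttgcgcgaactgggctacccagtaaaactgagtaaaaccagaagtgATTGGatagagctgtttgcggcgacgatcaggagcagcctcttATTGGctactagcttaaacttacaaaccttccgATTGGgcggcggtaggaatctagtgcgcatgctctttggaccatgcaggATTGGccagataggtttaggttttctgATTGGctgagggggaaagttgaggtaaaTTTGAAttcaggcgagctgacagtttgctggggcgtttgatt
Plk1 (chr7:122159185-122159484, plus strand): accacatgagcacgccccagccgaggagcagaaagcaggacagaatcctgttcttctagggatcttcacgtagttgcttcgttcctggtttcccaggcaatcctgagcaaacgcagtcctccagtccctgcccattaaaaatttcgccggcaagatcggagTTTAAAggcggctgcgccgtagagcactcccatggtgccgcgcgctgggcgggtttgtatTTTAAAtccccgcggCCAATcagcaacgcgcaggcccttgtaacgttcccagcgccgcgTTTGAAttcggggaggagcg
Nek2 (chr1:191821223-191821522, plus strand): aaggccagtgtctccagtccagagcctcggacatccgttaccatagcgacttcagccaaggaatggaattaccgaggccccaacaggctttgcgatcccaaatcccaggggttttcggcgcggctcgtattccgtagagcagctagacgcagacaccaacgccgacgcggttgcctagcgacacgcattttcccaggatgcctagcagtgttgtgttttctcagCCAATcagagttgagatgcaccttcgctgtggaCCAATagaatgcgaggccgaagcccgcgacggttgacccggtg
Pttg1 (chr11:43425932-43426231, minus strand): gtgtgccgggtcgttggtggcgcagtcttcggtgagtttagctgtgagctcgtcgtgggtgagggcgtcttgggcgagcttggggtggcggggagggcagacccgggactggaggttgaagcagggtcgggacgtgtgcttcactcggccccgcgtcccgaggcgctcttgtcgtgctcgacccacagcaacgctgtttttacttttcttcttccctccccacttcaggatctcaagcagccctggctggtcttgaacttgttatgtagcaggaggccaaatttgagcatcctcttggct
Cdk1, Cdc20, Hmmr and Plk1 hold both motifs, Nek2 holds CCAAT boxes and no CHR match, and Pttg1 holds neither. Of the other genes below all 6 cultured arrays in both Tfh arrays, Aurka, Bub3, Ttk and Ube2c also hold both motifs. Birc5 and Anln hold a CHR match and no CCAAT box, and Mad2l1 holds neither. Smc4 and Foxm1 had no window in the table.

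Over the 36 of 44 genes with a window, 30 (83.3%) held a CHR match, against 7 of 25 DNA replication genes (28%) and 8261 of all 27025 promoters (30.6%). Within 50 bases of the start on either side, a CHR match stood in 26 of the 36 (72.2%), in 3 of the 25 DNA replication genes (12%) and in 9.5% of all promoters. CCAAT boxes were in 28 of the mitosis genes (77.8%), in 16 DNA replication genes (64.0%) and in 41.1% of all promoters. Both motifs together were in 26 mitosis genes (72.2%), 5 DNA replication genes (20.0%) and 12.2% of all promoters. An E2F motif (TTTGGCGC, TTTCCCGC, TTTGCCGC or TTTCGCGC, on either strand) was in 3 mitosis genes (8.3%), 12 DNA replication genes (48.0%) and 2.6% of all promoters. It was thus more common in the DNA replication genes than in the mitosis genes, and both shares were above that of all promoters. A match is a description of the letters in the window, and says nothing of binding in these cells.

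**Figure D1:**
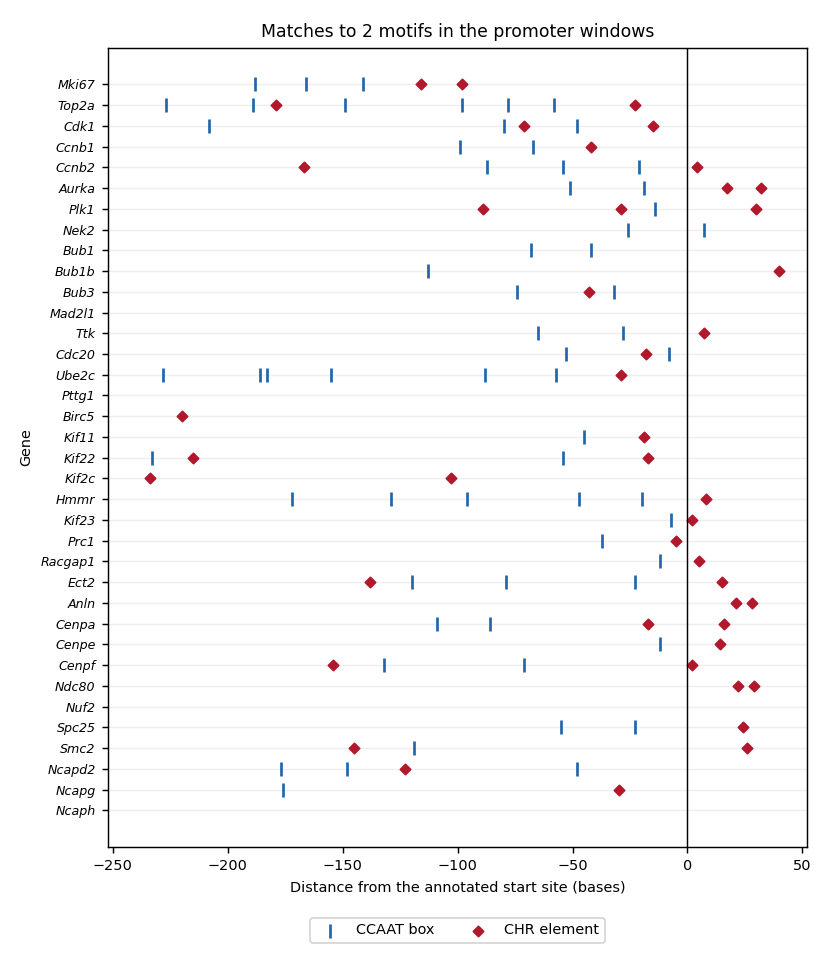
Matches to the CHR motif (diamonds) and the CCAAT box (bars) in the promoter windows of the 36 genes with a window, by distance from the annotated start in bases. Most CHR matches lie within 50 bases of the start, and most CCAAT boxes lie before it.

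The deposited values had different distributions in the Tfh arrays and the cultured arrays, and every difference below that sets Tfh against cultured cells carries this. The 75th percentile was 8.46 and 8.47 on the log2 scale in the Tfh arrays, against 6.97 to 7.06 among the cultured arrays. The Tfh minus cultured difference of the median tested gene was 0.84 log2 units as deposited and -0.20 after quantile normalization over the 8 arrays. All T cell identity genes on the array (10 of 10) were above the filter level in both arrays of each group. Among lineage genes, Cxcr5, by which the Tfh cells were sorted, stood at 11.25 and 11.20 in Tfh and at 8.12 or less in every cultured array, Ifng was highest in Th1, Il4 in Th2 and Il17a in Th17.

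As deposited, Tfh cells had levels of most mitosis and spindle genes inside the spread of the cultured arrays. The upper edge of that spread was Th1 replicate 2 for 41 of the 43 genes. The Tfh mean lay within the range of the 6 cultured arrays for 28 of 43 genes (65.1%), below all 6 for 10 (23.3%) and above all 6 for 5 (11.6%), whereas the shares over all tested genes were 22.2%, 15% and 62.7%. The median difference between Tfh and the cultured mean over the 43 genes was 0.18 log2 units as deposited, against 0.84 for the median tested gene. Of the 43, 38 lay below the median gene. That position depended on the filter, since with no filter on low values the median of all 18193 genes was 0.11 and the members' median lay above it. The sign of that median turned with the scaling, to -0.21 when arrays were shifted to the same median and to -0.79 after quantile normalization, when 41 of the 43 were below 0. In the quantile scaling the median level over the 43 genes was 8.92 and 8.94 in the Tfh arrays, against 9.51 to 10.64 in the cultured arrays.

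By limma, 4 of the 43 genes rose in Tfh against the mean of the cultured groups (Smc4, Pttg1, Foxm1 and Nek2) and 2 fell (Cdk1 and Cdc20), where a call needs a Benjamini-Hochberg adjusted p under 0.05 over all tested genes and a difference of at least 1 log2 unit. The same rule called 43.7% of all tested genes higher and 6.66% lower. Smc4 kept its higher call and Cdk1 and Cdc20 their lower calls in all 3 scalings (deposited, median shift and quantile), where the background was 15.6% higher and 6.63% lower. The other scalings lower Tfh on balance, so they are a weak check of lower calls. Both Tfh arrays were above all 6 cultured arrays for 5 genes and below all 6 for 10, where the background was 60.5% and 13.8%. At an unadjusted p under 0.05, 5 genes were higher and 5 lower, where 60.6% and 13.2% of all tested genes were. The calls rest on few arrays: without either Tfh array, 2 genes were called higher and 0 lower, and without Th1 replicate 2, 5 were called higher and 1 lower. With the 2 Tfh arrays, which lay within 0.27 log2 units of each other for every one of the 43 genes, averaged as 1 sample, 2 were called higher and 0 lower. The probe sets of a gene also disagreed in part: of 52 other probe sets above the filter level in at least 2 arrays, which belong to 31 of the genes, 33 differed in the same direction as the one used and 19 in the opposite one.

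**Figure D2:**
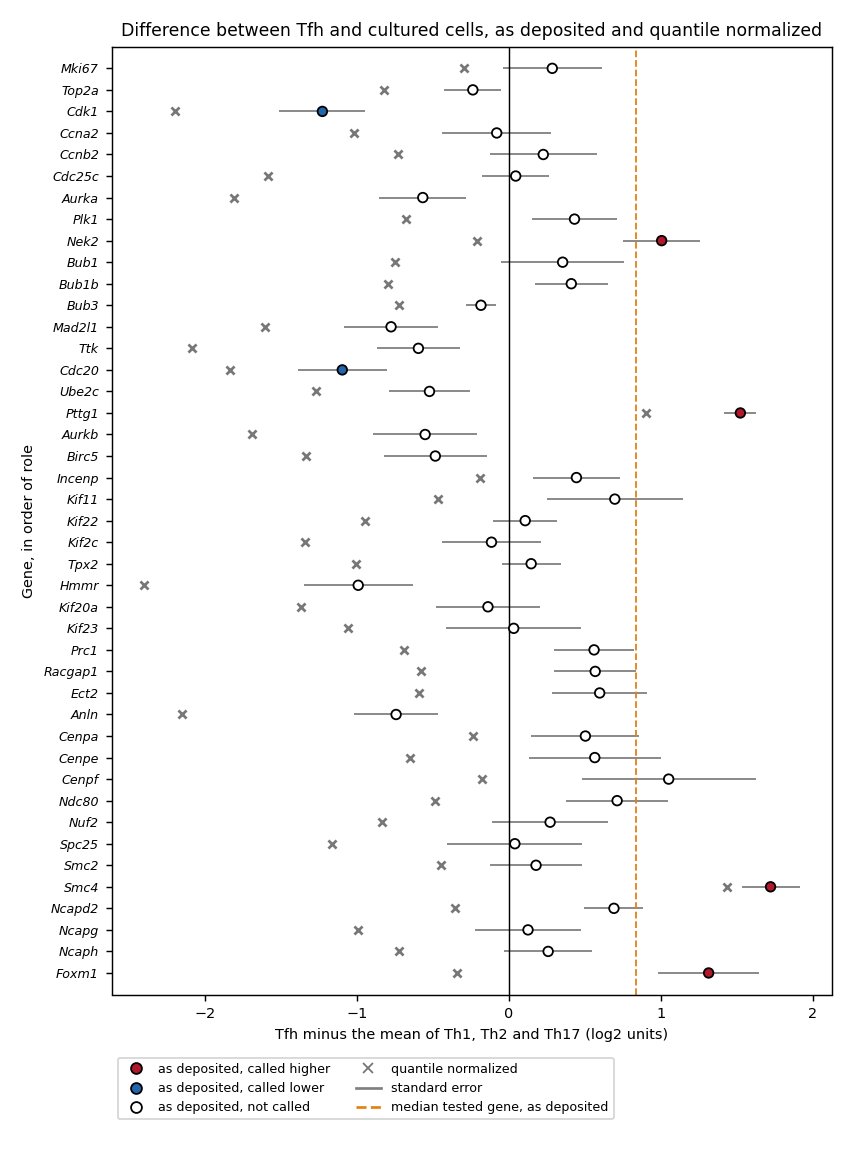
Difference between Tfh and the mean of Th1, Th2 and Th17 for the 43 genes in log2 units, as deposited (circles, filled where called, with the standard error of the limma fit) and after quantile normalization (crosses). The dashed line is the median tested gene as deposited, at 0.84, and 38 of the 43 circles lie to its left; every cross lies to the left of its circle, by 0.289 (Smc4) to 1.654 (Foxm1).

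The 2 general proliferation genes were not called between Tfh and the cultured mean as deposited. Mki67, which encodes the Ki-67 protein of cycling cells, stood at 12.41 and 12.39 on the log2 scale in Tfh, against 11.74 and 12.94 in Th1, 12.25 and 11.88 in Th2 and 11.73 and 12.15 in Th17. Both Tfh arrays lay between the lowest and the highest cultured array, and the difference from the cultured mean of 0.29 (SE 0.33) was not called (limma, adjusted p = 0.456). Top2a, the topoisomerase that untangles sister chromatids, stood at 12.10 and 12.13 in Tfh, against 12.24 and 12.86 in Th1, 12.25 and 11.92 in Th2 and 12.33 and 12.53 in Th17. Only Th2 replicate 2 lay below the Tfh arrays, and the difference of -0.24 (SE 0.19) was not called (adjusted p = 0.297). With arrays shifted to the same median it was -0.62 (limma, adjusted p = 0.0241), and after quantile normalization -0.82 (adjusted p = 0.0091), both under the fold needed. Against Th1 alone the quantile difference of Top2a was -1.004 (adjusted p = 0.0109), past the threshold. Mki67 differed from the cultured mean by -0.10 and -0.30 in these 2 scalings and was not called.

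Cdk1, the kinase that drives mitotic entry, fell in Tfh, while its measured cyclins and its activating phosphatase did not pass the test. Cdk1 stood at 10.19 and 10.06 in Tfh, against 11.26 and 12.22 in Th1, 11.54 and 10.94 in Th2 and 11.14 and 11.01 in Th17. Both Tfh arrays were below all 6 cultured arrays, with the nearest, Th2 replicate 2, at 10.94. The difference was -1.23 (SE 0.28, adjusted p = 0.0094), and its adjusted p was 0.0535 without Tfh replicate 1 and 0.0702 without Tfh replicate 2. Ccna2 (cyclin A2), Ccnb2 (cyclin B2) and Cdc25c, a phosphatase that activates CDK1, differed by -0.08, 0.23 and 0.05, each with Tfh arrays inside the cultured range.

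Of the mitotic kinases, Nek2, which helps centrosomes part, was called higher in Tfh as deposited. It stood at 9.46 and 9.55 in Tfh, against 8.38 and 9.28 in Th1, 8.45 and 8.14 in Th2 and 8.40 and 8.37 in Th17. Both Tfh arrays were above all 6 cultured arrays, and Th1 replicate 2 was the nearest of them. The difference of 1.01 (SE 0.25, adjusted p = 0.0129) lost its call when either Tfh array was left out (adjusted p 0.0715 and 0.0895), was 0.86 without Th1 replicate 1 and 0.95 without Th2 replicate 2, and was -0.21 after quantile normalization. Another Nek2 probe set, also above the filter level in all 8 arrays, differed by 0.52, and one above it in 5 arrays by -0.86. Over the mean of its probe sets the difference was 0.13 and not called (adjusted p = 0.528). Plk1, a kinase of spindle assembly and cytokinesis, stood at 9.98 and 9.86 in Tfh, against 9.64 and 10.46 in Th1, 9.40 and 8.87 in Th2 and 9.54 and 9.0 in Th17. Its Tfh arrays were above every Th2 and Th17 array and between those of Th1, and the difference of 0.43 (SE 0.28) was not called (adjusted p = 0.213). Aurka, the kinase of the spindle poles, was below all 6 cultured arrays in both Tfh arrays and differed by -0.57, which was not called (adjusted p = 0.123).

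None of the 5 spindle checkpoint genes was called by limma in this comparison, and at an unadjusted p under 0.05 there was 1, lower in Tfh. Bub1, a checkpoint kinase at the kinetochore, stood at 9.85 and 9.87 in Tfh, against 9.35 and 10.87 in Th1, 9.43 and 9.19 in Th2 and 8.78 and 9.38 in Th17. The Tfh arrays were above 5 of the cultured arrays and below Th1 replicate 2, and the difference of 0.35 (SE 0.41) was not called (adjusted p = 0.459). Mad2l1, which encodes the Mad2 protein that restrains Cdc20, stood at 10.96 and 10.91 in Tfh, against 11.18 and 12.35 in Th1, 11.76 and 11.59 in Th2 and 11.49 and 11.90 in Th17. Every Tfh value was below every cultured value, yet the difference of -0.77 (SE 0.31) missed the threshold (adjusted p = 0.064). Ttk (Mps1, the kinase that starts checkpoint signalling) and Bub3 were also below all 6 cultured arrays, by -0.59 and -0.18, and Bub1b (BubR1) differed by 0.41 with overlap; none of these 3 was called. The other 4 Bub3 probe sets, all above the filter level in all 8 arrays, differed the other way, by 0.31 to 2.56.

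The 3 genes of anaphase control diverged, with Pttg1 higher and Cdc20 lower in Tfh. Cdc20, the activator of the APC/C, stood at 11.28 and 11.24 in Tfh, against 12.04 and 13.14 in Th1, 12.55 and 12.10 in Th2 and 12.17 and 12.10 in Th17. Both Tfh arrays were below all 6 cultured arrays, and the difference was -1.10 (SE 0.29, adjusted p = 0.0167). It was -0.91, under the fold needed for a call, without Th1 replicate 2, and its adjusted p was 0.0855 and 0.0938 without either Tfh array. The other 2 Cdc20 probe sets, both above the filter level in all arrays, differed by -0.80 and -2.28.

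Pttg1 encodes securin, the inhibitor that holds separase until anaphase. It stood at 12.42 and 12.41 in Tfh, against 11.32 and 11.30 in Th1, 10.57 and 10.26 in Th2 and 10.90 and 11.004 in Th17. The Tfh arrays were more than 1 log2 unit above every cultured array, and the cultured groups did not overlap each other either. The difference was 1.52 (SE 0.11, adjusted p = 0.0001), and the other 2 Pttg1 probe sets differed by 1.59 and 2.77. After quantile normalization the difference was 0.90, under the fold needed for a call, and it was 0.33 when arrays were shifted to the same median of the tested genes, a scaling chosen after the data were seen. Ube2c, the ubiquitin-conjugating enzyme of the APC/C, was below all 6 cultured arrays in both Tfh arrays and differed by -0.52, which was not called (adjusted p = 0.124).

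The chromosomal passengers, the Aurora B complex that corrects faulty attachments, were not called (0 of 3 by limma, and 0 at an unadjusted p under 0.05). Aurkb, its kinase, stood at 9.44 and 9.63 in Tfh, against 9.92 and 10.92 in Th1, 10.24 and 9.31 in Th2 and 10.03 and 10.09 in Th17. Th2 replicate 2 was below both Tfh arrays and the other 5 above, and the difference was -0.55 (SE 0.34, adjusted p = 0.195). The other Aurkb probe set differed by 0.36, the other way. Birc5, which encodes survivin, stood at 10.89 and 10.89 in Tfh, against 11.03 and 12.28 in Th1, 11.34 and 10.997 in Th2 and 11.06 and 11.54 in Th17. Its Tfh arrays were below all 6, nearest to Th2 replicate 2, and the difference was -0.48 (SE 0.34, adjusted p = 0.244). Incenp, the scaffold, differed by 0.45 with overlap.

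**Figure D3:**
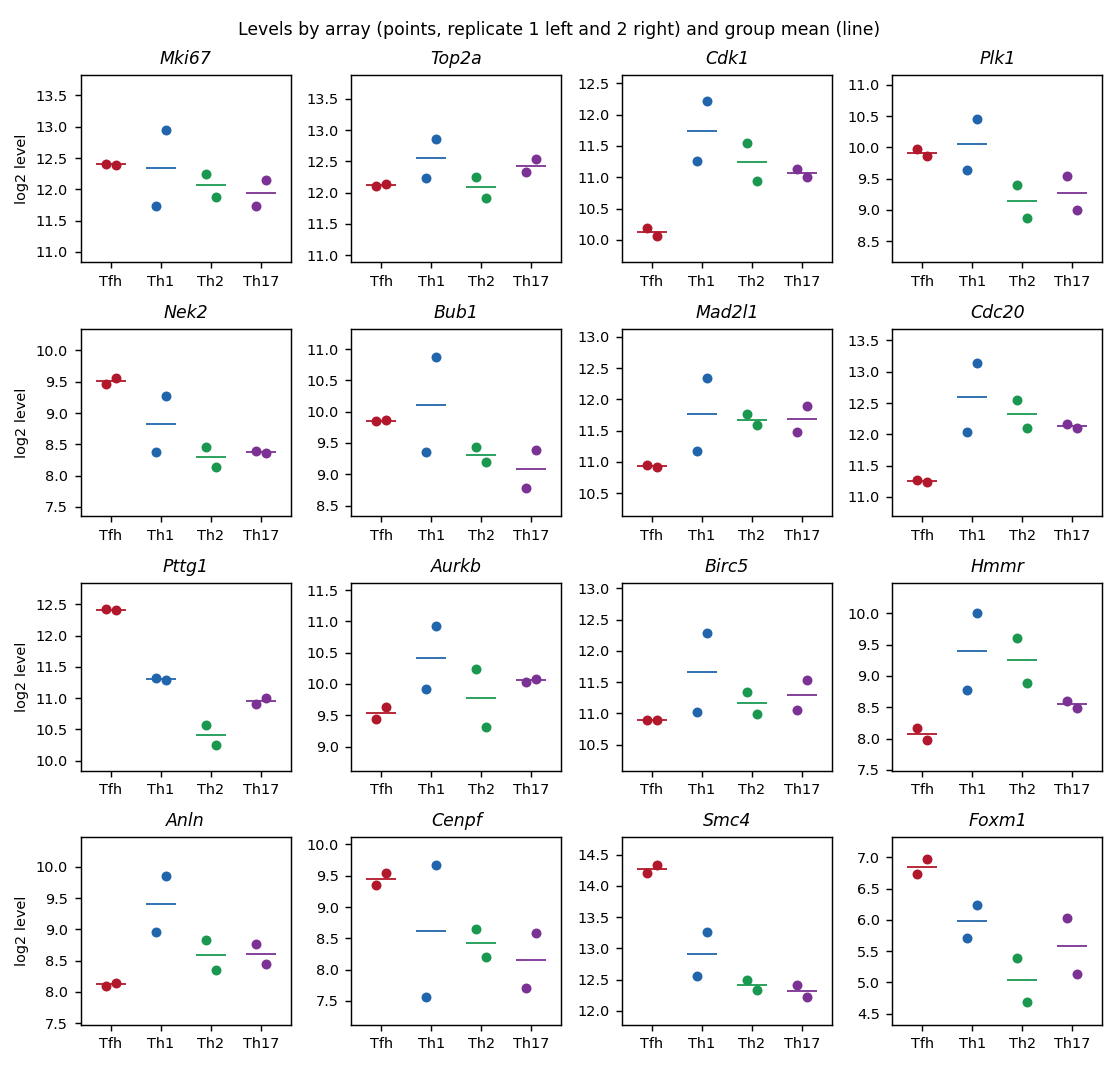
Log2 level of 16 of the genes on each array (points, replicate 1 left and replicate 2 right) with the group mean (line), in Tfh, Th1, Th2 and Th17; each axis spans the same number of log2 units. Pttg1, Smc4, Foxm1 and Nek2 lie highest in both Tfh arrays, Cdk1, Cdc20, Mad2l1, Hmmr, Anln and Birc5 lie lowest, and the 2 Th1 arrays lie far apart for most genes.

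Among the genes of spindle assembly, Hmmr stood apart in the Tfh arrays, and among those of cytokinesis Anln did. Hmmr, a microtubule-associated protein of the spindle poles, stood at 8.17 and 7.98 in Tfh, against 8.78 and 10.00 in Th1, 9.61 and 8.89 in Th2 and 8.6 and 8.49 in Th17. Both Tfh arrays were below all 6 cultured arrays, and the difference of -0.99 (SE 0.36, adjusted p = 0.0472) fell just short of the fold needed for a call. The other 4 Hmmr probe sets differed by -0.09 to -1.02, all downward. Kif11, Kif22, Kif2c and Tpx2, which build and shorten spindle microtubules or move chromosomes along them, differed by 0.70, 0.11, -0.11 and 0.15, with overlap. Other probe sets above the filter level in all 8 arrays differed by -0.52 and -0.97 for Kif11 and by 0.605 and 0.99 for Kif22. Such probe sets differed by -0.09 and -1.99 for Kif2c and by 1.31 for Tpx2.

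Anln, the actin-binding scaffold of the contractile ring, stood at 8.10 and 8.15 in Tfh, against 8.96 and 9.85 in Th1, 8.82 and 8.35 in Th2 and 8.76 and 8.44 in Th17. The Tfh arrays were below all 6 cultured arrays, nearest to Th2 replicate 2, and the difference of -0.74 (SE 0.28) was not called (adjusted p = 0.0515). The other 5 genes of the midzone and cytokinesis, Kif20a, Kif23, Prc1, Racgap1 and Ect2, differed by -0.14 to 0.60 with overlap, and limma called none of the 6, with 1 lower at an unadjusted p under 0.05.

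All 6 centromere and kinetochore genes (Cenpa, Cenpe, Cenpf, Ndc80, Nuf2 and Spc25) had a difference above 0 as deposited, from 0.04 to 1.05, and all 6 were below 0 after quantile normalization. As deposited, 5 of the 6 lay below the median tested gene, at 0.84. Limma called none of the 6, also at an unadjusted p under 0.05. Other probe sets above the filter level in at least 2 arrays differed by -0.61 for Cenpf and -0.635 for Spc25, and by 2.65 for Cenpa and 0.26 for Cenpe. Cenpf, a large kinetochore protein that accumulates in G2, stood at 9.35 and 9.55 in Tfh, against 7.56 and 9.68 in Th1, 8.64 and 8.2 in Th2 and 7.70 and 8.59 in Th17. Only Th1 replicate 2 was above the Tfh arrays, and the gap of 2.11 between the Th1 arrays was the largest between replicates of any of the 43 genes. The difference of 1.05 (SE 0.57) was not called (adjusted p = 0.146), and it was 1.40, past the threshold, without Th1 replicate 2.

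Condensin, which compacts mitotic chromosomes, held the gene with the largest difference upward. Smc4, an ATPase subunit of condensin, stood at 14.20 and 14.34 in Tfh, against 12.56 and 13.26 in Th1, 12.49 and 12.34 in Th2 and 12.42 and 12.22 in Th17. The Tfh arrays were above all 6 cultured arrays, with Th1 replicate 2 the nearest, and the difference was 1.72 (SE 0.19, adjusted p = 0.0005). The other 2 Smc4 probe sets differed by 1.21 and 2.21, and after quantile normalization the difference was 1.43. Shifted to the same median of the tested genes, it was 0.53 (adjusted p = 0.0503). Smc2, the partner ATPase, and Ncapg and Ncaph, 2 regulatory subunits, differed by 0.18, 0.13 and 0.26 with overlap. Their other probe sets, above the filter level in all 8 arrays, differed by -1.44 to 0.28 for Smc2, -2.38 for Ncapg and 0.61 for Ncaph. Ncapd2 was above all 6 cultured arrays in both Tfh arrays, but its difference of 0.69 (adjusted p = 0.02) was under the fold needed for a call.

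Foxm1, a transcription factor that drives genes of G2 and mitosis, stood at 6.73 and 6.97 in Tfh, against 5.72 and 6.24 in Th1, 5.39 and 4.68 in Th2 and 6.03 and 5.14 in Th17. Both Tfh arrays were above all 6 cultured arrays, and the difference was 1.32 (SE 0.33, adjusted p = 0.0134). The call was lost without either Tfh array (adjusted p 0.0601 and 0.0949), and the difference was -0.34 after quantile normalization and 0.17 over the mean of its probe sets. The 2 other Foxm1 probe sets above the filter level in all arrays differed in opposite directions, by 0.695 and -1.11. The direction for Foxm1 thus depended on the scaling and on the probe set.

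Tfh was also set against each cultured type alone, and these comparisons share the Tfh arrays. In Tfh against Th1, 2 of 43 were higher (Smc4 by 1.36 and Pttg1 by 1.11) and 4 lower (Cdk1 by -1.62, Cdc20 by -1.34, Hmmr by -1.32 and Anln by -1.28), where the background was 42.8% higher and 6.16% lower. Their adjusted p ran from 0.0008 (Pttg1) to 0.0392 (Hmmr). These counts depended on which Th1 array was used, since without Th1 replicate 1 there were 2 higher and 12 lower, and without Th1 replicate 2 there were 6 higher and 1 lower. Leaving out Tfh replicate 1 or 2 left 1 and 0 lower. The 4 lower calls stood in all 3 scalings (background 6.13%), and the 2 higher ones did not (background 15.6%). The Tfh arrays were above both Th1 arrays for 5 genes and below both for 13, where the background was 67.7% and 18.8%.

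In Tfh against Th2, 4 genes were higher (Pttg1 by 2.00, Smc4 by 1.85, Foxm1 by 1.81 and Nek2 by 1.21) and 2 lower (Cdk1 by -1.12 and Cdc20 by -1.07), where the background was 42.8% and 6.89%. The adjusted p was 0.0313 for Cdk1 and 0.0409 for Cdc20, and without either Tfh array, either Th17 array or Th2 replicate 1 neither was called, while 3 genes were lower without either Th1 array and 1 without Th2 replicate 2. The higher count was 2 without Tfh replicate 2 and 2 without Th2 replicate 2. In Tfh against Th17, 4 were higher (Smc4 by 1.95, Pttg1 by 1.46, Foxm1 by 1.26 and Nek2 by 1.13) and 0 lower, where the background was 41.8% and 6.17%. At an unadjusted p under 0.05, 7 were higher and 1 lower, where the background at that threshold was 56.7% and 11.2%, and Cdk1 at -0.95 had an adjusted p of 0.0541. The higher count was 2 without either Tfh array and without Th17 replicate 2, and 7 without either Th1 array. In all 3 scalings, 2 were higher and 2 lower than in Th2 (background 16% and 6.86%), and 1 was higher and 0 lower than in Th17 (background 13.9% and 6.13%). The Tfh arrays did not overlap with Th2 for 21 genes upward and 10 downward (background 69.7% and 20%), or with Th17 for 28 upward and 12 downward (background 69% and 18%). Hmmr differed by -1.18 from Th2 (adjusted p = 0.0562) and by -0.48 from Th17.

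The median difference over the 43 genes was -0.13 against Th1, 0.26 against Th2 and 0.46 against Th17 as deposited, each below the median tested gene (0.85, 0.84 and 0.82). With no filter on low values the median gene stood at 0.095, 0.10 and 0.13, so the members' median was below it against Th1 and above it against Th2 and Th17. After quantile normalization it was -1.12, -0.79 and -0.54. As deposited, the value against Th1 was -0.57 without Th1 replicate 1 and 0.48 without Th1 replicate 2, and the value against Th2 was 0.50 without Th2 replicate 1 and 0.04 without Th2 replicate 2.

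Between the cultured types, limma called none of the 43 genes in any of the 3 comparisons, where the background was 1.24% of tested genes for Th1 against Th2, 0.143% for Th1 against Th17 and 0.671% for Th2 against Th17. At an unadjusted p under 0.05, 2 were higher and 0 lower in Th1 against Th2 (background at that threshold 7.42% and 8.28%), 2 higher and 0 lower in Th1 against Th17 (4.12% and 5.61%), and 0 higher and 1 lower in Th2 against Th17 (6.11% and 7.4%). Both Th1 arrays were above both Th2 arrays for 6 genes and below for 0 (background 25% and 18.4%), and above both Th17 arrays for 13 and below for 0 (background 16.9% and 14.8%). Both Th2 arrays were above both Th17 arrays for 7 and below for 3 (background 21.7% and 22.7%). Pttg1 passed the unadjusted threshold each time, with 0.89 for Th1 against Th2 (adjusted p = 0.0444, under the fold), 0.35 for Th1 against Th17 and -0.54 for Th2 against Th17. The median difference over the 43 genes was 0.41 for Th1 against Th2, 0.50 for Th1 against Th17 and 0.10 for Th2 against Th17. Without Th1 replicate 2 the first was -0.05 and the second 0.00, and without Th1 replicate 1 they were 0.88 and 1.02. The first was 0.60 without Th2 replicate 1 and 0.19 without Th2 replicate 2, and the median for Th2 against Th17 was -0.105 without Th2 replicate 1 and 0.31 without Th2 replicate 2.

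The 2 Th1 arrays stood apart from each other on these genes. Th1 replicate 2 was the highest of the 6 cultured arrays for 41 of the 43 genes (95.3%), against 24.0% of all tested genes and 17 of 31 DNA replication genes. It was above Th1 replicate 1 for 42 of 43, by a median of 1.01 log2 units and by more than 1 for 22 of them. Over all tested genes it was above for 55.2%, the median gap was 0.03 and 12.8% of genes differed by more than 1. The median gap was 1.04 over 29 other kinetochore and checkpoint genes, 0.99 over 21 other spindle, motor and cytokinesis genes and 0.60 over the 31 DNA replication genes, with Th1 replicate 2 higher for 27, 20 and 26 of them. The Th2 arrays differed the same way to a lesser degree, with replicate 1 above replicate 2 for 42 of 43 and a median of -0.44 for replicate 2 minus replicate 1. Over all tested genes, Th2 replicate 1 was above for 6400 of 11178 and the median was -0.01. The median gap was 0.03 between the Th17 arrays and 0.01 between the Tfh arrays, where the largest gap of any gene was 0.27. The exceptions were Pttg1, highest in Th1 replicate 1, and Kif23, a motor of the midzone, which stood at 10.98 in Th2 replicate 2 and at 10.43 or less elsewhere. Th1 replicate 2 was above both Tfh arrays for 37 of the 43 genes, and Th1 replicate 1 for 13. The matching shares over all tested genes are not given here, so these 2 counts are a description only.

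**Figure D4:**
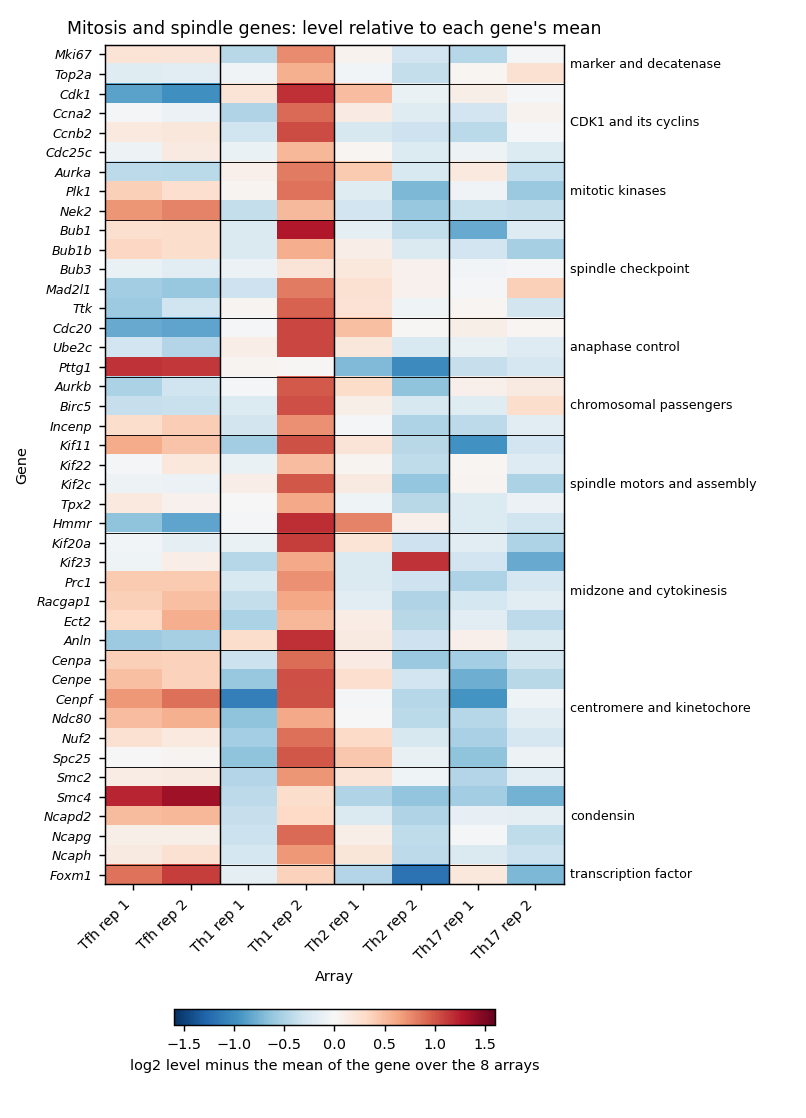
Log2 level of each of the 43 genes on each array minus the mean of that gene over the 8 arrays, in order of role; red is above and blue below the mean. Th1 replicate 2 is red for nearly all genes, the Tfh columns are alike, and Pttg1, Smc4 and Foxm1 are red and Cdk1, Cdc20 and Hmmr blue in both Tfh arrays.

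The genes varied together across the cultured arrays, where Th1 replicate 2 was highest for 41 of 43. Over these 6 arrays, which share the culture protocol and the normalization, the correlation of a gene with the median of the other members had a median of 0.92 and was over 0.8 for 38 of 43, given as a description. It was lowest for Kif23 (0.25) and Pttg1 (0.44). With so few arrays, the correlation may rest largely on Th1 replicate 2. Its value without that array, and over all tested genes, is not given here. The range over the 6 arrays was 1.24 log2 units for the median gene, from 0.29 for Bub3, a checkpoint protein also used outside mitosis, to 2.11 for Cenpf. The 29 measured genes with a CHR match and the 6 measured genes with a window and no match had like gaps between the Th1 arrays (median 1.04 and 1.07), and their median differences between Tfh and cultured cells were 0.13 and 0.31.

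**Figure D5:**
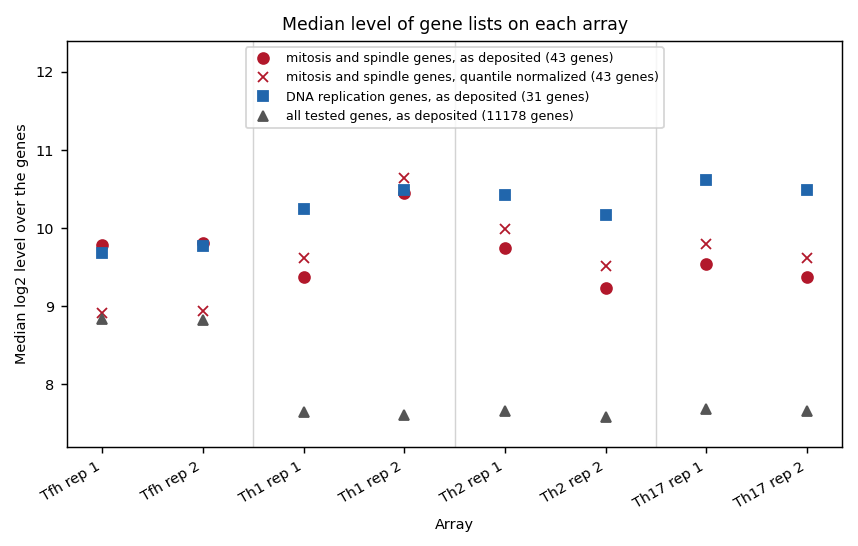
Median log2 level on each array over the 43 mitosis and spindle genes (as deposited, circles, and quantile normalized, crosses), the 31 DNA replication genes (squares) and all 11178 tested genes (triangles). The mitosis genes stand at 9.79 and 9.81 in Tfh and peak at 10.46 in Th1 replicate 2, while all tested genes are higher in Tfh (8.84 and 8.83) than in any cultured array (7.59 to 7.69).

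Other genes of the same machinery were read from lists, whose counts stand against the 43.7% of all tested genes that were called higher and the 6.66% called lower. Of 29 other kinetochore and checkpoint genes, 7 rose and 2 fell in Tfh against the cultured mean, with a median of 0.21; Mad1l1, which brings Mad2 to the kinetochore, was higher by 3.16 (SE 0.10), Cenpt by 1.63 and Zw10 by 1.63. Of 21 other spindle, motor and cytokinesis genes, 2 rose and 0 fell (also 0 lower at an unadjusted p under 0.05), Numa1, which anchors microtubules at the poles, by 2.48 and Cit, the citron kinase of cytokinesis, by 2.36, while Kifc1 at 0.88 was not called. Of 16 other condensin, cohesin and separase genes, 3 rose and 1 fell; the cohesin gene Stag1 was higher by 1.24, and Wapl and Smc1a, at 0.99 and 0.74, were under the fold. Of 15 genes of the APC/C and its inhibitor Emi1, 3 rose and 0 fell (1 lower at an unadjusted p under 0.05), Anapc2 by 2.63 and Anapc7 by 2.05, with Anapc1 at 0.98 under the fold. After quantile normalization the medians of these 4 lists were -1.045, -0.90, -0.37 and -0.40. That scaling called 1, 1, 0 and 1 genes higher and 16, 9, 3 and 3 lower, where 1755 and 2469 of all 11079 tested genes were. In all 3 scalings, 1, 1, 0 and 1 were higher and 2, 0, 1 and 0 lower, where the background was 15.6% and 6.63%.

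Regulators of mitosis and of the earlier cycle were read the same way. Of 22 regulators of mitotic gene transcription, 12 rose and 0 fell (4 lower at an unadjusted p under 0.05), with a median of 1.24. After quantile normalization 3 were called higher and 8 lower, with a median of 0.23, and 3 were higher in all 3 scalings. The MuvB subunit Lin52 was higher by 4.55 (SE 0.12), the CCAAT-binding subunit Nfya by 1.59, and Tfdp1, the partner of E2F factors, stood at -0.92, under the fold. Of 18 G1 cyclins, CDKs and inhibitors, 4 rose and 4 fell, against 3 called higher and 9 lower after quantile normalization. Cdkn1b, the CDK inhibitor p27, was higher by 4.16 (SE 0.30), Cdkn1c (p57) by 1.97 and the phosphatase Cdc25b by 3.53, and each was higher in all 3 scalings. Of the 18, 3 were higher and 4 lower in all 3 scalings, where the background was 15.6% and 6.63%.

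DNA replication genes, which serve S phase, differed from the mitosis genes in their calls. None of 31 rose by limma (background 43.7%), with 4 higher at an unadjusted p under 0.05 (background 60.6%). Of the 31, 11 fell (background 6.66%), all of them in all 3 scalings (background 6.63%). Orc1, of the origin recognition complex, stood at 3.5 and 2.79 in Tfh, against 7.54 to 8.71 in the cultured arrays, a difference of -5.14 (SE 0.33, adjusted p = 0.0001). Cdc6, which loads the replicative helicase, stood at 7.64 and 7.74 in Tfh, against 10.25 to 11.34, a difference of -3.03 (SE 0.27, adjusted p = 0.0002). Pcna, the sliding clamp, differed by -0.66 and was under the fold. The median difference was -0.66 over these 31 genes and 0.18 over the 43 mitosis genes as deposited. After quantile normalization it was below 0 for both lists, at -1.59 and -0.79. The difference between the lists was not tested.

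Among markers of other cells, the neutrophil granule genes had a higher sum in both Tfh arrays than in any cultured array and the erythroid genes a lower one, while the sums for myeloid and for CD8 and NK cell genes lay inside the cultured range. All 12 neutrophil granule genes on the array were above the filter level in both Tfh arrays, and their summed level was 16.15 and 16.10 on the log2 scale in Tfh, against 6.14 to 12.07 in the cultured arrays, with the highest in Th2 replicate 1. S100a8, one of them, stood at 14.92 and 14.85 in Tfh, against 2.87 to 11.10 in the cultured arrays. For 13 myeloid and dendritic cell genes the sum was 12.28 and 12.19 in Tfh, against 6.6 to 12.79, with Fcgr1 at or below the filter level throughout. For 11 B cell genes it was 10.51 and 10.51, against 6.70 to 10.50 (the highest in Th2 replicate 2), with Pax5 and Vpreb3 at or below it throughout. For 7 CD8 and NK cell genes it was 9.16 and 9.18, against 7.56 to 12.45, with the highest in Th1 replicate 1 and Ncr1 at or below it throughout, and for 9 erythroid genes it was 11.61 and 11.55, against 13.45 to 13.87, with 4 of 9 at or below it throughout. The erythroid sum rests on few genes, as 3 of 9 were above the filter level in both arrays of each group. That sum alone does not mark erythroid cells. The part of any of these other cells in the levels of the mitosis genes was not tested.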

How the data were processed

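Values of 45101 probe sets on 8 mouse expression arrays were used as deposited, on the log2 scale; the authors summarized them with GCRMA per the submitters' processing notes (version not given in the sources used here). Symbols came from the platform annotation (34945 probe sets with 1 symbol, 932 with several and 9160 with none, both left out, and 64 controls); promoters came from RefSeq. For each gene the probe set with the highest mean was kept. Testing covered genes that exceeded the 50th percentile of the whole table in at least 2 arrays. The tests used limma 3.58.1 (R 4.3.3), fitting each of the 4 group means, with empirical Bayes moderation and a trend (4 residual and 1.78 prior degrees of freedom), two-sided, with Benjamini-Hochberg adjustment. The genes, lists and rules were chosen with earlier results of these data known.

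Values on each array are given for Mki67, Top2a, Cdk1, Plk1, Aurkb, Bub1, Birc5 and Foxm1, for genes called in all 3 scalings, and for the gene with the largest difference in each role. Of each other pathway list the 3 genes with the smallest adjusted p are named, and of the marker lists S100a8. Cxcr5, Ifng, Il4 and Il17a, and the other probe sets, were added after their values were seen. Alternatives were the scaling, the filter, the probe set, the variance model, the fold, the arrays in the fit, leaving out each array, the averaged Tfh arrays as 1 sample, and the replicate block. In data simulated for 11178 genes with 200 raised in Tfh, the procedure recovered 22% of changes of 1 log2 unit and 74.5% of changes of 2 between Tfh and the cultured mean, so a gene not called may still differ. A change of 1 sits at the fold needed for a call. The simulation had far fewer changed genes than the data, where 4887 were called higher and 745 lower, so its shares do not give the recovery in these data. Plots used matplotlib 3.10.9 in Python 3.11.15.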

Additional observations from a re-analysis of the deposited data

How the results depend on the processing

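Counts of called genes depended most on the scaling. In the order Tfh against the cultured mean, Th1, Th2 and Th17, the higher calls were 2, 0, 3 and 2 with arrays shifted to the same median, 1, 1, 2 and 1 after quantile normalization and 0 in each at the same median of the tested genes, and the lower calls were 5, 9, 4 and 3, then 15, 20, 12 and 11, then 20, 28, 16 and 12. Calls over all tested genes moved with the scaling too. Against the cultured mean, 3628 of 11079 were higher and 1251 lower with the median shift. After quantile normalization 1755 of 11079 were higher and 2469 lower, and at the same median of the tested genes 1653 of 11197 and 3560. The median difference from the cultured mean was -0.794 and -1.013 after quantile normalization and at the same median of the tested genes. That last scaling, the fit without both Th1 arrays and the fit on the cultured arrays alone were chosen after the data were seen. Nek2 turned to -0.207 after quantile normalization and to -0.187 at the same median of the tested genes, and Foxm1 turned to -0.338 after quantile normalization; the cause was not tested. With the Tfh arrays averaged as 1 sample, higher calls were 2 against the cultured mean and 2 against Th17, and lower calls 0 against the mean, 1 against Th1 and 0 against Th2. On other choices, lower calls were 1 against the mean and 1 against Th2 without probe sets that may match several transcripts, 1 against Th17 over the mean of all probe sets, and 2 against Th1 on those groups alone; higher calls against Th17 were 7 on those groups alone and 7 without both Th1 arrays; and with no fold threshold 1 gene passed for Th1 against Th2.

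Leaving out single arrays gave 2 to 5 higher and 0 to 3 lower calls against the cultured mean, 2 to 6 and 0 to 12 against Th1, 2 to 5 and 0 to 3 against Th2, 2 to 7 and 0 throughout against Th17, and 0 between cultured types. The median difference from the cultured mean ran from 0.008 to 0.376. A lone array left in a group is assumed to vary like the others. With the replicate number as a block, 1 gene was lower against Th2, as Cdc20 had an adjusted p of 0.0567, and Hmmr against Th1 had 0.0582; other counts moved by less than 1.5 times. Deviations of arrays with the same number correlated at -0.002 to 0.268, near 0 with Tfh, so the number was not taken to pair them. Other filters and no variance trend kept each count within 1.5 times, but with no filter the median gene for Tfh against the cultured mean was 0.106, against 0.839 with it, and the members' median of 0.179 lay above it. The filter level is a percentile of the table, not a measured background, so how far signal over background limits dim genes was not tested.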
